A study of Mus musculus with 15 samples.

Results

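The nuclear genes for subunits of the mitochondrial respiratory chain were described in mouse liver under 3 diets. Members were all rows of the count files whose symbol begins with Nduf followed by a, b, c, s or v and a number (complex I), is Sdha to Sdhd (complex II), begins with Uqcr (complex III), names a Cox4 to Cox8 subunit with the letter a, b or c (complex IV), or begins with Atp5 (ATP synthase, complex V). The rule found 82 of the 23420 genes listed: 37 for complex I, 4 for complex II, 8 for complex III, 16 for complex IV and 17 for complex V. Counts were present for 79 of the 82 and for 17585 genes in all. After the filter on low counts, 73 members entered the test: 36, 4, 8, 10 and 15 in the order of the complexes. No counts at all were recorded for Ndufs5, Cox7b2 and Cox8c, and 6 more (Cox6a2, Cox6b2, Cox7c, Cox8b, Atp5g2 and Atp5l) were too low to test. The symbol rule leaves out Cox4i1, Cyc1, Cycs and Ndufab1, which belong to the chain, and it takes in Atp5s and Atp5sl, which are not counted as subunits of the ATP synthase today.

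PolyA RNA came from the left lobe of the liver, pulverized, of C57Bl/6J males, an inbred mouse strain, and was sequenced with a stranded kit. There were 5 libraries per diet. BD is the base diet, of which 4% was fat, and HFD is the high-fat diet, at 31%. MCD had the same fat content as HFD but was short of methionine, choline and folate, a dietary model of fatty liver with inflammation. All 15 libraries came from animals given only the vehicle, 5% Alkmauls El-620 in saline, and taken 24 h later. The labels give no ages. Whether each library is its own animal is not stated in the labels, and the p-values then measure only the spread between samples, which may be technical. BD samples carry a separate run of sample numbers from MCD and HFD, and a batch following that run and the base diet cannot be told apart. Library names below (BD 1 to MCD 5) only name samples and pair nothing.

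Library totals ran from 3704642 to 23131089 gene counts. Values are given as CPM, a gene's counts as a share of all gene counts in the library, scaled to a common total. The 82 members together took from 0.820% (8203 CPM, in HFD 3) to 1.116% of the gene counts (11160 CPM, in MCD 2). The tissue label was borne out by 9 hepatocyte markers, none at 0, which summed to between 117800 and 157800 CPM over the 15 libraries. Alb made up most of this sum, at 84680 to 131700 CPM. Against BD, 2 of the markers (Cps1 and Ass1) fell in HFD and 3 (Cps1, Fgb and Hnf4a) in MCD. Ass1 was low throughout, at 1.37 to 19.03 CPM. Markers of other cells moved with diet: 10 macrophage and monocyte genes summed to 128.3 to 216 CPM in BD, 200 to 335 CPM in HFD and 326 to 463 CPM in MCD, and 9 stellate cell and fibroblast genes to 251 to 329, 307 to 505 and 498 to 943 CPM. All 10 macrophage genes and 8 of the 9 stellate genes rose in MCD against BD by the edgeR test used below, 3 and 0 in HFD against BD, and none was at 0 in all libraries. Of 7 endothelial genes, 0 were called in HFD against BD, and 3 (Stab2, Pecam1 and Lyve1) were higher in MCD against BD. Of 4 tested cholangiocyte genes, Sox9 was lower in both comparisons and Spp1 higher in MCD. The part of these other cells in the results below was not tested. In bulk tissue, fewer cells of a type and less RNA per cell cannot be told apart.

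The respiratory chain passes electrons from NADH (complex I) and succinate (complex II) through ubiquinone to complex III, then through cytochrome c to complex IV and oxygen, and the proton gradient so built drives the ATP synthase. Most of its subunits are made from nuclear genes and imported, and a small set is made from mitochondrial DNA. In hepatocytes the chain takes up the electrons released by fatty acid oxidation. Known regulators of its nuclear genes include NRF1, the ETS factor GABP, the oestrogen-related receptors and YY1.

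Several members share sequence with processed copies of their messenger RNAs elsewhere in the genome. Words of 50 bases in the member's GENCODE M21 transcript (build GRCm38) were looked up in all other transcripts outside its own locus. Shared words made up 100% of Atp5g2, 68.5% of Atp5l, 52.95% of Cox7c, 50.5% of Atp5h, 43.2% of Uqcrb and 41.2% of Ndufs5. Reads that fit several places equally are usually not counted, and the closing rows of the files hold 1.15 to 2.80 non-unique alignments per gene count. The coding sequences of Cox7c, a small subunit of cytochrome c oxidase, and Ndufs5, an accessory subunit of complex I, are shown because these genes have few or no counts. Capitals mark bases covered by a 50-base word that also occurs in another gene.
Cox7c, the 192 coding bases, spliced, within chr13:86045753-86046675, minus strand: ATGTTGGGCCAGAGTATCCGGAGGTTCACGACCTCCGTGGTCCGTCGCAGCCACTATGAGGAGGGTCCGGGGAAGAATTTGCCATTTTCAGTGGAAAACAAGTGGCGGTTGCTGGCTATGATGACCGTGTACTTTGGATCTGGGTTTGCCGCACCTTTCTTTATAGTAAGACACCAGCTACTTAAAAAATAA
Ndufs5, the first 300 of 321 coding bases, spliced, within chr4:123712843-123716079, minus strand: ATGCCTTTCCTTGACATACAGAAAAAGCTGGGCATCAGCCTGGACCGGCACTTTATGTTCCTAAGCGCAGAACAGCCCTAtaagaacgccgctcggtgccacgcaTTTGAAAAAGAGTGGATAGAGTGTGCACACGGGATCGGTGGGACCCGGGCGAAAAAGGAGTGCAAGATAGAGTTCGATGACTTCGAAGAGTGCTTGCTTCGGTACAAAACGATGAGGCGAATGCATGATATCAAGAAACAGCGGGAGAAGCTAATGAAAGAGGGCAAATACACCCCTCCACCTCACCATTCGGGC
All 192 coding bases of Cox7c were shared with 3 pseudogenes, and 275 of the 300 printed bases of Ndufs5 with 1. Cox7c held 142 counts over the 15 libraries, between 0.194 and 1.64 CPM. Ndufs5 held 0 counts, while its copy BC002163, annotated as a processed pseudogene at chr16:42955631-42955949, held 3217 counts and lay between 9.62 and 25.81 CPM with a median of 18.01. Uqcrb and Atp5h, with 43.2% and 50.5% shared words against 41.2% in Ndufs5, held 4840 and 6994 counts. Why Ndufs5 held 0 was not tested. The 0 of Ndufs5 says only where reads were assigned in these files, and levels and differences of members with many shared words are uncertain. Overlapping genes add to this for some members: exons on the opposite strand overlap Atp5j (Gabpa), Atp5f1 (Wdr77), Atp5d (Cbarp), Ndufb5 (Mrpl47) and Ndufs6 (Mrpl36), among others, and the strand setting of the counting is not given in the sources used here.

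Sequence around the start of the members was read from RefSeq promoters (build GRCm38.p6), which cover 250 bases before to 50 after each start. Matches were found for 69 of the 82 members, with 75 promoters. Core motifs were searched on both strands: GCGCANGCG for NRF1, CCGGAAG for ETS factors such as GABP, AAGGTCA for oestrogen-related receptors, AAGATGGC for YY1 and GGGCGG for Sp1. NRF1 letters were present in 21 of the 75 promoters (28.0%), against 12.8% of 12441 promoters of tested genes and 6.25% of all 32851. YY1 letters were present in 16.0% of the members' promoters, 4.31% of those of tested genes and 2.75% of all. For the ETS core the shares were 21.3%, 17.0% and 8.86%, and for the oestrogen-related receptor core 10.7%, 3.42% and 4.72%. Sp1 letters went the other way against tested genes, with 38.7% of the members, 60.9% of tested genes and 35.7% of all. Median GC content of the 300 bases was 57.3% for members and 60.3% for tested genes. The NRF1 core can match both strands at the same place, and a promoter was counted once per motif. A match is only a run of letters and shows no binding.

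The 120 bases before the start are shown for 4 members with such letters and for Ndufb10, the member called below, with matches to the NRF1, ETS, oestrogen-related receptor and YY1 cores in capitals.
Sdha, chr13:74350241-74350360, minus strand: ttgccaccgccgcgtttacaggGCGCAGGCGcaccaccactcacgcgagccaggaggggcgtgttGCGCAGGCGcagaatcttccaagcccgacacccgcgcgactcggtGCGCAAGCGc
Sdhd, chr9:50603850-50603969, minus strand: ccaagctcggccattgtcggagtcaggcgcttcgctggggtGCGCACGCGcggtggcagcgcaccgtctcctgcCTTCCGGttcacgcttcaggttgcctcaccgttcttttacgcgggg
Cox6a1, chr5:115348959-115349078, minus strand: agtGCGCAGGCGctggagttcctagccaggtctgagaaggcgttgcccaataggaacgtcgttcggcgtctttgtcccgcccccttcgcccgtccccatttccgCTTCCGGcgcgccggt
Ndufb4, chr16:37654369-37654488, minus strand: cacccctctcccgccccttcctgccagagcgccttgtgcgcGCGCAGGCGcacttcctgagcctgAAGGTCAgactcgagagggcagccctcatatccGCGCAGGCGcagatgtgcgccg
Ndufb10, chr17:24724424-24724543, minus strand: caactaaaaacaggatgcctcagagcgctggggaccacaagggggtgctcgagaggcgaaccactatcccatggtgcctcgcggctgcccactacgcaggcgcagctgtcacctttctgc
Sdha held 3 NRF1 cores in this stretch, and Sdhd and Cox6a1 each held 1 NRF1 and 1 ETS core. Ndufb4 held NRF1 cores and a receptor core. The Ndufb10 stretch held no whole match to any of the 4 cores, and an NRF1 core in its 300-base window spans the start itself.

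Levels per length set the members of each complex in order. They are given as CPM per kb of 1 chosen transcript, a mean over the 15 libraries. Atp5b, the catalytic beta subunit of the ATP synthase, was highest of all at 695 CPM per kb, followed by the alpha subunit Atp5a1 at 497. Within complex I the highest was Ndufa4 at 394, a small subunit now usually counted with complex IV, and the next was Ndufb9, an accessory subunit, at 230.1. Sdha, the flavoprotein that oxidizes succinate, led complex II at 239.8, ahead of the membrane anchor Sdhd at 185, the iron-sulphur subunit Sdhb at 146 and the other anchor Sdhc at 51.9. Uqcrh, the hinge protein, stood first in complex III at 196. In complex IV Cox6a1 and Cox6b1 lay at 265 and 261, and Cox5b at 18.9. The order depends on the transcript chosen. With the shortest coding transcript of each gene, Sdha was highest of all at 963 and Atp5b stayed at 695. Sdhc then moved from last to next after Sdha in complex II, at 552. In complex III, Uqcrc2 (611), Uqcrc1 (547) and Uqcrq (351, against 93.4) then stood above Uqcrh (267). Some of these shortest transcripts are much shorter than the chosen one: 722 against 2900 bases for Sdha, 298 against 3171 for Sdhc and 370 against 1653 for Uqcrc1. Counts of the whole gene over so short a length can overstate the level. The second order shows only how far the choice matters.

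**Figure D1:**
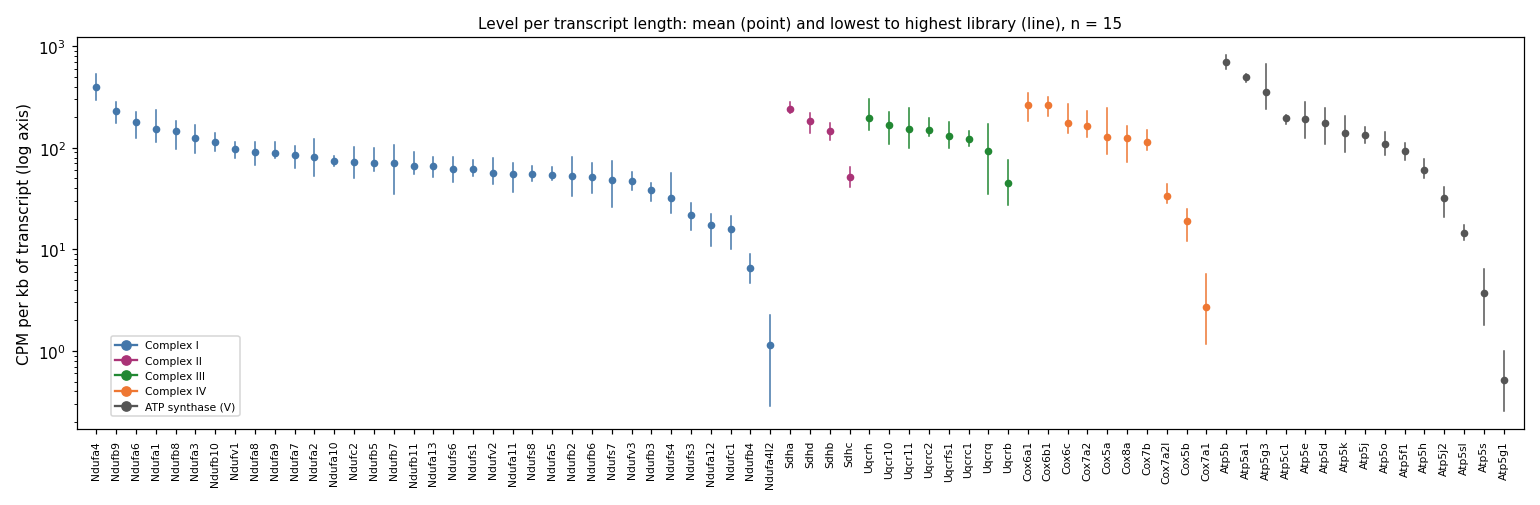
Level per transcript length of the tested members (1 is not shown), grouped by complex and ordered within it, with the mean of 15 libraries as a point and the lowest to highest library as a line, on a log axis in CPM per kb. With these transcripts Atp5b stands highest at 695, and Atp5g1 (0.514) and Ndufa4l2 (1.13) are lowest.

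Of the subunits that exist as tissue forms, the form found in most tissues was the abundant one in every diet. Cox6a1 lay between 105 and 195.5 CPM (15 libraries), while its heart and muscle form Cox6a2 lay between 0 and 0.270 CPM. Cox7a2 lay between 84.5 and 151 CPM and its muscle form Cox7a1 between 0.458 and 2.25. Cox8a lay between 39.7 and 89.0 CPM, the muscle form Cox8b between 0 and 0.133, and the testis form Cox8c at 0 counts. Cox6b1 lay between 126.3 and 196 CPM and the testis form Cox6b2 between 0 and 0.600. Cox7b lay between 94.4 and 149.7 CPM and its testis form Cox7b2 held 0 counts. Muscle markers summed to at most 1.20 CPM, with Ckm, Myh2, Myh6 and Pvalb at 0 in every library, and testis markers to at most 0.0970 CPM. The deepest library allows a gene at 0 counts up to 0.130 CPM (3 counts) and the shallowest 0.810, a limit that covers counting error only. The 3 genes for the c-ring of the ATP synthase, which encode the same mature protein, were unequal: Atp5g3 lay between 171 and 477 CPM, Atp5g1 between 1.20 and 4.68 and Atp5g2 between 0 and 0.800, and every word of Atp5g2 is shared with pseudogenes. Ndufa4 lay between 179 and 327 CPM, and its hypoxia-inducible relative Ndufa4l2 between 0.270 and 2.10.

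Summed by complex, the HFD mean was the lowest of the 3 diets and the MCD mean the highest, in each of the 5 complexes. Complex I summed to 2783 ± 265 CPM under BD, 2559 ± 211 under HFD and 2820 ± 209 under MCD (mean ± SD, n = 5 each, here and below). Complex II summed to 1255 ± 41.9, 1181 ± 59.4 and 1326 ± 123 CPM. Complex III summed to 1104 ± 131, 991 ± 119 and 1130 ± 89.0 CPM. In complex IV the sums were 808 ± 94.6, 749.9 ± 66.2 and 924 ± 114 CPM. The ATP synthase genes gave 3836 ± 142, 3576 ± 155 and 3965 ± 336 CPM. All members together gave 9786 ± 613, 9058 ± 581 and 10170 ± 844 CPM. The ranges of libraries overlapped between every pair of diets in this total: 8938 to 10500 in BD, 8203 to 9658 in HFD and 9258 to 11160 in MCD. Complex II did not overlap between HFD (1077 to 1221 CPM) and MCD (1234 to 1467) in these unscaled sums. The scaling factors of the tests were 1.055 and 1.078 in MCD 4 and MCD 5, both at 1234 CPM. In HFD 1, at 1221 CPM, the factor was 1.015, so with factors applied these libraries overlap. With factors, 0 of the 4 complex II genes were higher in MCD than in HFD without overlap. Within MCD, libraries 1 and 2 were the highest in all 5 complexes and in the total, at 10930 and 11160 CPM, and MCD 3 to 5 lay between 9258 and 9959. Sums over unscaled CPM carry no factors, and the tests below do.

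**Figure D2:**
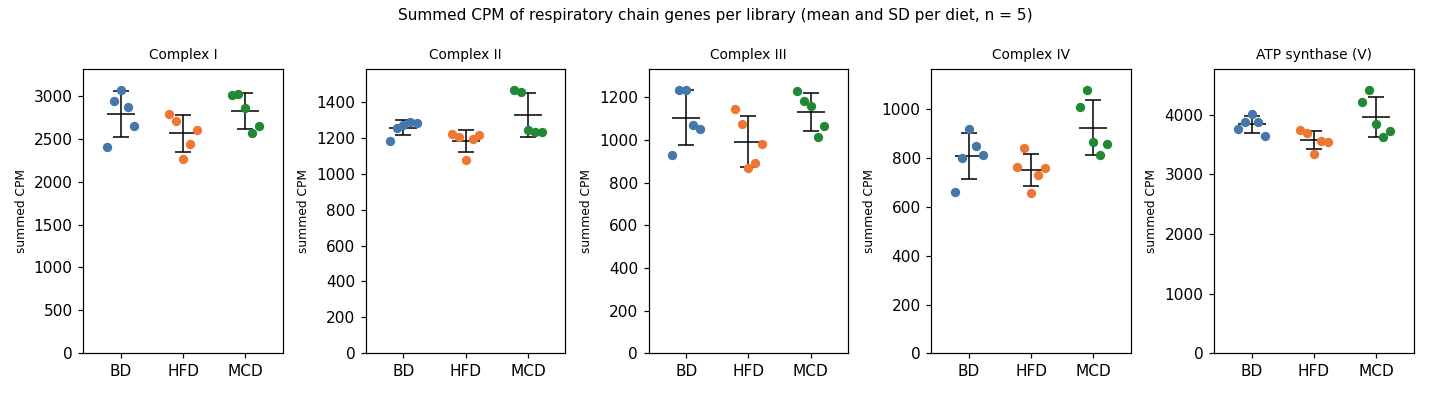
Summed CPM of the members of each complex in each of the 15 libraries (points, coloured by diet), with mean and SD per diet as black lines. HFD means are lowest in every complex, and points of the diets overlap, except between HFD and MCD in complex II, a separation of unscaled sums only.

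High-fat diet against base diet. Of 73 members tested, 1 fell and none rose, with 71 of 73 estimates below 0 and a median log2 fold change of -0.22, against -0.01 for all 12193 genes. The member that fell was Ndufb10, an accessory subunit in the membrane arm of complex I. Its level was 80.7, 89.9, 97.9, 101 and 82.1 CPM in BD, 79.1, 73.4, 74.0, 67.2 and 77.3 in HFD and 89.7, 94.0, 86.9, 75.9 and 77.6 in MCD. Every HFD library lay below every BD library, and MCD overlapped both. The log2 fold change was -0.35 (95% interval -0.55 to -0.15) with an edgeR adjusted p of 0.0312. Among all genes, 3.27% were called lower and 3.65% higher in this comparison, beside 1 lower and 0 higher of 73 members. At an unadjusted p under 0.05, 18 members were lower and 0 higher in edgeR, beside 9.42% of all genes lower and 10.8% higher, and DESeq2 and limma called 0 higher. In CPM, libraries of the diets did not overlap for 2 members (Ndufb10 and Atp5b, both lower), and 2.47% of all genes were lower in this way. With the scaling factors of the test applied, Uqcrfs1 joined them, where 3.56% of all genes were lower without overlap.

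The call of Ndufb10 does not hold under several settings: its adjusted p was 0.0597 without scaling factors, 0.0707 with the GC and length trend of each library removed, and between 0.0517 and 0.0911 without BD 2, BD 3, BD 4, HFD 1, HFD 2, HFD 3 or HFD 4, and it was called in 19 of 29 alternatives. The members' median was -0.21 with RLE or upper-quartile factors. Without factors it was -0.15, where 7 members were above 0 and all genes lay at 0.06, so that members stood at -0.21 relative to all genes both with and without factors. With the GC and length trend removed the median was -0.10, where all genes lay at 0.02.

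By complex, the negative sign was shared. In complex I, 34 of 36 estimates were below 0 (median -0.21). Core subunits of the electron path had estimates from -0.05 for Ndufs1 to -0.25 for Ndufv1 and -0.39 for Ndufs7, none past the threshold. Ndufa8 and Ndufa10 were the members above 0, at 0.12 and 0.00. All 4 complex II genes were below 0. Sdha lay at 672 ± 21.3 CPM in BD and 671 ± 18.6 in HFD, a log2 fold change of -0.07 (95% interval -0.24 to 0.11). Sdhb fell short of the threshold, with 149, 186, 201, 183 and 169 CPM in BD and 168, 154, 135, 158 and 157 in HFD, a log2 fold change of -0.27 and an edgeR adjusted p of 0.0746; DESeq2 called it lower. The anchors Sdhc and Sdhd stood at -0.23 and -0.27. In complex III all 8 estimates were below 0 (median -0.23). The Rieske iron-sulphur protein Uqcrfs1 lay at 181 ± 17.0 CPM in BD and 157 ± 15.4 in HFD, with an edgeR adjusted p of 0.231. All 10 tested complex IV genes were below 0 (median -0.18), from -0.03 for Cox7a2 to -0.45 for Cox7a1, a gene near 1 CPM.

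In the ATP synthase all 15 estimates were below 0 (median -0.23). Atp5b was 1359, 1318, 1341, 1408 and 1384 CPM in BD and 1204, 1277, 1145, 1260 and 1218 in HFD. Each HFD library lay below each BD library, with a log2 fold change of -0.22 (95% interval -0.40 to -0.04) and an edgeR adjusted p of 0.148. Its partner in the catalytic head, Atp5a1, had 1209 ± 86.8 CPM in BD and 1232 ± 51.04 in HFD, at -0.04 (95% interval -0.21 to 0.13). The difference between these 2 genes was not tested. The 95% interval lay within a 1.5-fold change in either direction for 49 of the 73 members, and reached beyond it for the others.

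**Figure D3:**
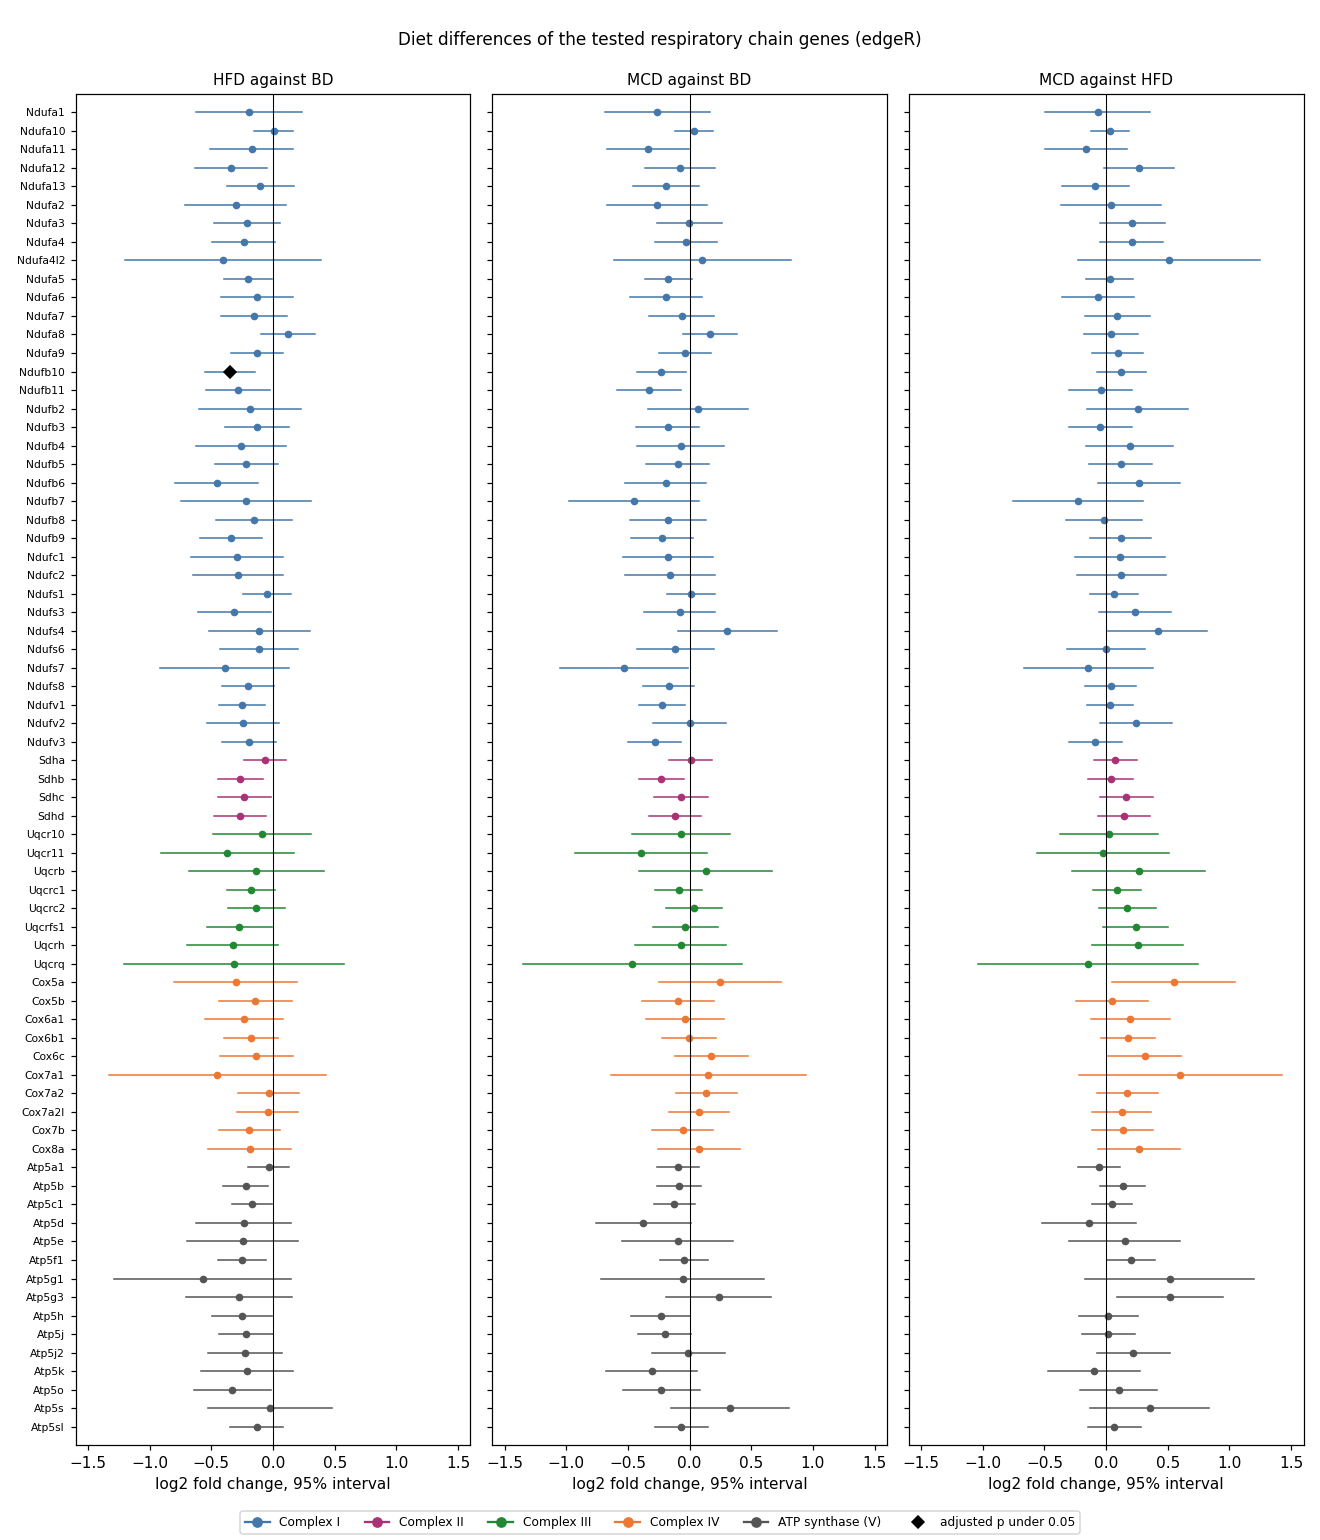
Log2 fold change with its 95% interval for the tested members (1 is not shown), coloured by complex, in the 3 comparisons (edgeR, TMM factors). Black diamonds mark adjusted p under 0.05, which Ndufb10 alone reaches, in HFD against BD; most points lie left of 0 in the left and middle panels.

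Deficient diet against base diet. No member was called in either direction, in a comparison where 12.8% of all genes were called higher and 8.64% lower by edgeR. Before adjustment, 7 members were lower and 0 higher at p under 0.05, beside 15.6% and 17.8% of all genes. DESeq2 called 2 lower (Ndufv3 and Sdhb) and 0 higher, and limma called none. No member was lower without overlap of the libraries, against 2.76% of all genes in CPM and 6.07% with scaling factors. With scaling factors none was higher without overlap, beside 1136 of 12193 genes. In CPM Ndufa10 was higher without overlap, at 138.3 to 144.7 in BD and 153.6 to 166.4 in MCD. The share of all genes higher without overlap in CPM was not computed. The members' median log2 fold change was -0.09 with 55 of 73 estimates below 0. Its sign depends on scaling: without scaling factors the median was 0.05 with 45 of 73 above 0, where the median of all genes moved by 0.14. Relative to the median of all genes, the members stood at -0.06 in both. The 95% interval lay within a 1.5-fold change for 55 of 73 members. This comparison shares its 5 BD libraries with the previous one.

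Complex IV was the group whose median lay above 0, at 0.08, with 6 of 10 estimates positive. Without scaling factors its median was 0.22 with 10 of 10 positive, and complexes II, III and V also lay above 0, at 0.04, 0.06 and 0.05, with complex I at -0.02. Cox5a was at 77.6 ± 19.1 CPM in BD and 102 ± 40.6 in MCD, and Cox6c, a small transmembrane subunit, at 83.7 ± 8.52 and 104 ± 25.9. In both, the SD in MCD was larger than the difference of the means. Complex I had a median of -0.16 with 29 of 36 below 0. Ndufv3, an accessory subunit next to the flavin site, came nearest to a call with an edgeR adjusted p of 0.0589 and a log2 fold change of -0.28 (95% interval -0.50 to -0.07). Its CPM ran from 61.3 to 90.8 in BD and from 65.6 to 82.5 in MCD. Ndufs7 had the lowest estimate of all, -0.54 (95% interval -1.05 to -0.02), with 42.5 ± 13.8 CPM in BD and 32.3 ± 9.01 in MCD. In complex II, Sdha lay at 743 ± 66.9 CPM in MCD, with a log2 fold change of 0.01, and Sdhb at 167 ± 7.66, with -0.23 and an edgeR adjusted p of 0.0667. Complex III stood at a median of -0.07. The ATP synthase stood at -0.09, and its range ran from -0.375 (Atp5d, the delta subunit, 181 ± 51.9 CPM in BD and 153 ± 33.8 in MCD) to 0.33 (Atp5s, which is no subunit) and 0.23 (Atp5g3).

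Which members came near a call depended on single libraries. Without BD 5, 6 members were called lower (Atp5d, Ndufa11, Ndufb11, Ndufs7, Ndufv1 and Ndufv3). Without MCD 2, 4 were (Atp5h, Atp5j, Ndufb10 and Ndufb11). The lists have only Ndufb11 in common.

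Deficient diet against high-fat diet at equal fat content. No member was called, where edgeR called 2.22% of all genes higher and 0.927% lower. Before adjustment, 5 members were higher and 0 lower at p under 0.05, beside 11.1% and 8.83% of all genes, and DESeq2 and limma called none. No member was lower without overlap, against 0.697% of all genes in CPM and 1.83% with scaling factors. With scaling factors none was higher without overlap either, beside 304 of 12193 genes. In CPM, members higher in MCD without overlap included Atp5b, at 1145 to 1277 in HFD and 1299 to 1581 in MCD. Others were Cox6b1 (126.8 to 155.4 and 159.6 to 191.3) and Atp5f1 (120.7 to 144.1 and 144.9 to 177.2). The share of all genes higher without overlap in CPM was not computed. Estimates were above 0 for 57 of 73, with a median of 0.11 (0.18 without scaling factors, where all genes moved by 0.08). The 5 with an unadjusted p under 0.05 included Atp5g3, which was 228, 231, 171, 179.8 and 222 CPM in HFD and 380.3, 477, 229, 217 and 238 in MCD. MCD 1 and 2 were far above the other 8 libraries of these diets, and MCD 3 to 5 overlapped HFD. Its log2 fold change was 0.52 (95% interval 0.09 to 0.94) with an edgeR adjusted p of 0.164. Cox5a stood at 0.55 with an edgeR adjusted p of 0.203. All 10 complex IV estimates were above 0 (median 0.19), as were all 4 of complex II (median 0.11). Intervals lay within a 1.5-fold change for 56 of 73 members.

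These genes also moved between libraries of the same diet. Within diets the SD of log2 CPM had a median of 0.227 over the 73 members, from 0.0774 for Ndufa10 to 0.683 for Uqcrq, beside 0.242 for all genes. Among genes above a mean log2 CPM of 3 it was the members whose median was larger, at 0.216 for 68 members and 0.197 for all 8206 genes. Uqcrq, a small subunit of complex III, was 103, 233, 261.5, 132 and 76.8 CPM in BD, 223, 165, 96.2, 81.6 and 113.5 in HFD and 102, 53.8, 216, 118 and 157 in MCD. Uqcrb, its neighbour in the complex, was 14.6, 21.1, 21.05, 23.3 and 33.8 CPM in BD, 20.4, 25.8, 15.6, 23.1 and 25.05 in HFD and 39.8, 40.3, 18.5, 18.7 and 22.4 in MCD. The pair did not move together: the ratio of Uqcrq to Uqcrb, in CPM, ran from 1.34 in MCD 2 and 2.27 in BD 5 to 12.4 in BD 3. In the same way the ratio of Atp5d to Atp5g3 was 0.249 in MCD 2, 0.327 in MCD 1 and 0.396 in BD 5, and between 0.678 and 0.880 in the other 12 libraries.

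The movements were also set against GC content. Log2 deviations of a library from the mean of all 15 were set against the GC content of the gene over 8179 genes, and the correlation (Pearson, across genes, which are not independent) was -0.525 in BD 5, -0.331 in HFD 4, -0.286 in MCD 2 and -0.188 in MCD 1, and 0.401 in BD 2 and 0.344 in HFD 1. Over the 73 members alone it ran from -0.649 in BD 5 to 0.501 in BD 3. The 20 members with a GC content of at least 55%, such as Atp5d (61.1%), Ndufs7 (60.7%), Ndufa13 and Uqcr11, had median deviations from -0.26 in BD 5 to 0.41 in BD 3. The 11 members under 47%, such as Ndufa4 (44.1%), Uqcrc2 (44.4%), Ndufs4 and Cox7b, had medians from -0.23 in BD 1 to 0.49 in MCD 2. MCD 2 also had a correlation of -0.418 with log2 transcript length, so that short messages read high there. The ratios above did not follow these correlations in every library: Atp5d to Atp5g3 was 0.792 in HFD 4 and 0.327 in MCD 1. Of the genes in these ratios, Atp5d is in the GC-rich group and Uqcrb (42.2%) in the AT-rich group. Uqcrq (50.2%) and Atp5g3 (50.4%) are in neither. Uqcrb also has 43.2% shared words. Each diet held libraries with GC correlations of both signs. The correlation with log2 length was 0.198, -0.078, -0.095, -0.162 and 0.059 in BD 1 to 5. In HFD 1 to 5 it was -0.019, -0.00076, 0.271, 0.217 and 0.103, so short messages read low in HFD 3 and HFD 4. In MCD 1, 3, 4 and 5 it was -0.106, 0.036, 0.139 and 0.074. What made libraries differ along GC content or length, and its part in the members' medians, was not tested.

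**Figure D4:**
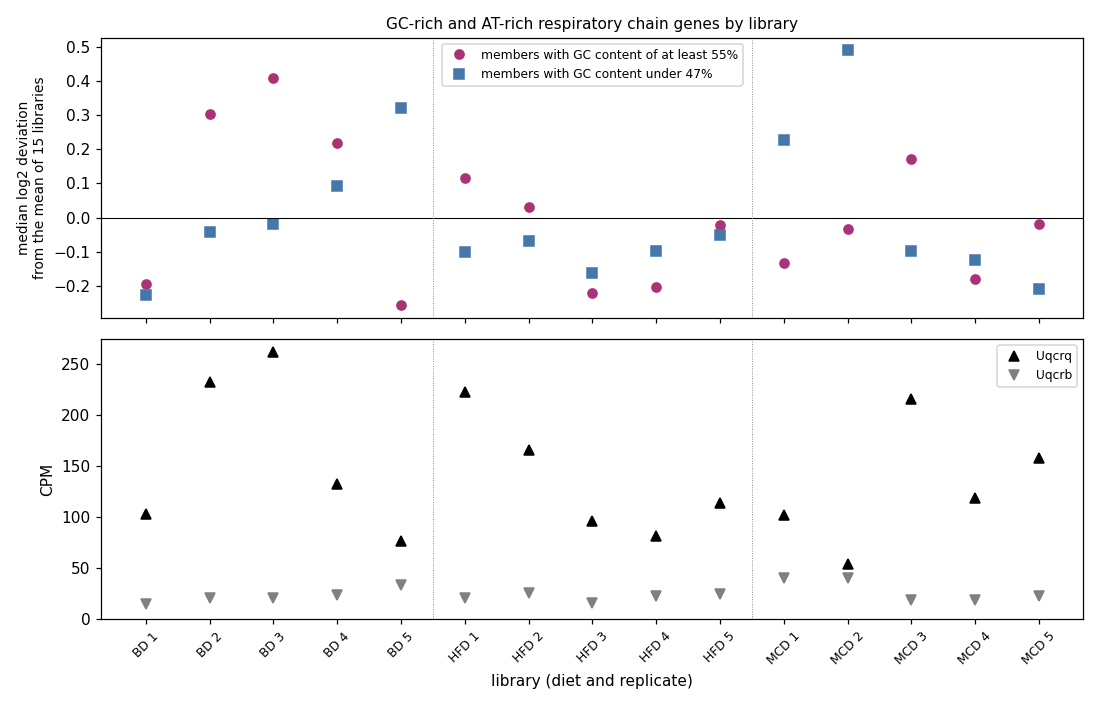
Upper panel: median log2 deviation from the mean of 15 libraries for the 20 members with at least 55% GC and the 11 members under 47% GC, in each library. Lower panel: CPM of Uqcrq (50.2% GC, in neither group) and Uqcrb (42.2% GC) in each library. In BD 5 and MCD 2 the AT-rich members are high (0.32 and 0.49) while Uqcrq is lowest of its diet.

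Ndufa10 and Atp5c1 were among the steadiest members. Ndufa10 had 141 ± 2.44 CPM under BD, 147 ± 13.3 under HFD and 159 ± 5.39 under MCD. Atp5c1, the gamma subunit that turns within the ATP synthase head, had 231 ± 8.40, 214 ± 12.8 and 233 ± 9.84 CPM. In both genes no difference between diets passed the test, and their 95% intervals in HFD against BD were -0.15 to 0.16 and -0.34 to -0.01 on the log2 scale. In CPM, every MCD library of Ndufa10 (153.6 to 166.4) lay above every BD library (138.3 to 144.7). With scaling factors the libraries of these diets overlapped.

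Genes around the chain were described by lists. Chain genes outside the symbol rule were not called: Cox4i1, a subunit of complex IV, had mean CPM of 305 ± 33.3 (BD), 299.1 ± 42.6 (HFD) and 312 ± 4.70 (MCD), and Cyc1, the cytochrome c1 of complex III, at 174 ± 15.7, 154 ± 10.97 and 174 ± 12.2. Of 7 tested genes in that list 0 were called in any comparison, with 1 (lower), 1 (higher) and 0 at an unadjusted p under 0.05. Assembly factors of complex I gave 0 of 13 in HFD against BD and 1 higher (Nubpl) and 1 lower (Ecsit) in MCD against BD. For complex IV it was 0 of 18, then 1 higher (Cox19) and 1 lower (Taco1). The calls of Nubpl, Ecsit and Taco1 stood in 14, 13 and 6 of 29 alternatives. No assembly factor of complexes II, III or V was called in any comparison, nor any of these factors in MCD against HFD. Mitochondrial ribosomal proteins, which translate the mitochondrial share of the chain, gave 0 higher and 1 lower of 74 in HFD against BD, 0 and 4 in MCD against BD and 0 and 0 in MCD against HFD, with medians of -0.12, -0.09 (0.04 without scaling factors) and -0.01. Of 12 genes for the outer membrane and import, 0 were called in any comparison by edgeR, and before adjustment 1 had p under 0.05 in HFD against BD (higher), 1 in MCD against BD (lower) and 0 in MCD against HFD.

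Enzymes that feed electrons to ubiquinone moved in both directions, with 3 of 7 called in HFD against BD, 4 in MCD against BD and 1 in MCD against HFD. Gpd2, the mitochondrial glycerol 3-phosphate dehydrogenase, was 44.5, 50.1, 36.5, 33.9 and 50.1 CPM in BD, 94.5, 83.0, 109, 124 and 118 in HFD and 83.6, 52.4, 75.9, 75.1 and 63.6 in MCD. All HFD and MCD libraries lay above all BD libraries. It rose by 1.23 (log2) in HFD and by 0.56 in MCD against BD, with edgeR adjusted p of 1.91e-05 and 0.00740, and was lower in MCD than in HFD by -0.67 with 0.0157. Prodh, proline dehydrogenase, fell in HFD and in MCD against BD, with 180.2 ± 28.7 CPM under BD, 122 ± 15.6 under HFD and 121 ± 15.1 under MCD, with log2 fold changes of -0.62 and -0.71 and edgeR adjusted p of 0.00194 and 0.000236. Etfb, a subunit of the electron transfer flavoprotein of fatty acid oxidation, fell in MCD by -0.33 with an edgeR adjusted p of 0.00727, from 228 ± 19.0 to 199 ± 6.14 CPM. The remaining call in each comparison with BD was Sqrdl, sulphide:quinone oxidoreductase, lower by -0.36 and -0.30 and named here after its values were seen.

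Carriers of adenine nucleotides and phosphate and the uncoupling proteins had 1 of 4 tested genes called in HFD against BD, 2 in MCD against BD and 1 in MCD against HFD, all higher. Ucp2, an uncoupling protein family member abundant in macrophages, was 16.4 to 21.8 CPM in BD, 22.8 to 68.9 in HFD and 45.5 to 82.2 in MCD. It rose by 0.82 in HFD and by 1.59 in MCD against BD, with edgeR adjusted p of 0.0478 and 0.000222. The HFD call stands in 11 of 29 alternatives, and HFD 2 alone reached 68.9 CPM where the other HFD libraries lay between 22.8 and 32.7. Without HFD 2 the rise in HFD was 0.49 with an edgeR adjusted p of 0.0753. MCD against HFD was 0.78 with an adjusted p of 0.0710 in edgeR, and 1.12 with 0.000286 without HFD 2. The macrophage marker sums given above rose in the same order of diets as Ucp2, and their part in it was not tested. Slc25a4, the adenine nucleotide carrier typical of heart and muscle, rose in MCD to 8.25 ± 1.12 CPM from 4.40 ± 0.621 in BD (log2 fold change 0.72, edgeR adjusted p 0.00712), while HFD had 4.63 ± 1.46. Against HFD it was higher in MCD by 0.75 with an edgeR adjusted p of 0.0315, a call that stood in 19 of 29 alternatives. Slc25a5, the main carrier in these libraries, lay at 155 ± 26.6, 170.1 ± 33.1 and 191 ± 18.3 CPM and was not called.

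In the citric acid cycle, which supplies NADH and succinate, 0 of 14 genes were called in HFD against BD and 1 in each of the comparisons with MCD. Idh2, the mitochondrial NADP-dependent isocitrate dehydrogenase, was 100.1 to 134 CPM in BD, 65.8 to 156 in HFD and 163 to 212 in MCD. It was higher in MCD than in BD by 0.53 and than in HFD by 0.87, with edgeR adjusted p of 0.0263 and 0.0117. The call against BD stood in 24 of 29 alternatives and was lost without BD 2, BD 5, MCD 1 or MCD 4, with adjusted p from 0.0549 to 0.0649, and with non-unique alignments as a covariate (0.22, adjusted p 0.191). In HFD against BD its estimate was -0.34 with an edgeR adjusted p of 0.252. Without HFD 2 that estimate was -0.55 with 0.00909, and with non-unique alignments as a covariate -0.39 with 0.0166, both past the threshold. In ubiquinone synthesis, Adck3 (also called Coq8a), a kinase-like protein needed for the pathway, fell in HFD and in MCD against BD, with 679.7 ± 111 CPM under BD, 361 ± 55.8 under HFD and 313 ± 68.8 under MCD, by -0.97 and -1.25 on the log2 scale with edgeR adjusted p of 0.000773 and 4.73e-05. No library of either high-fat group reached the lowest BD value of 564 CPM. Coq10b, a ubiquinone-binding protein, rose in MCD against BD by 0.88 with an edgeR adjusted p of 0.0439, a call that stood in 16 of 29 alternatives. No other of the 12 genes of that list was called.

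**Figure D5:**
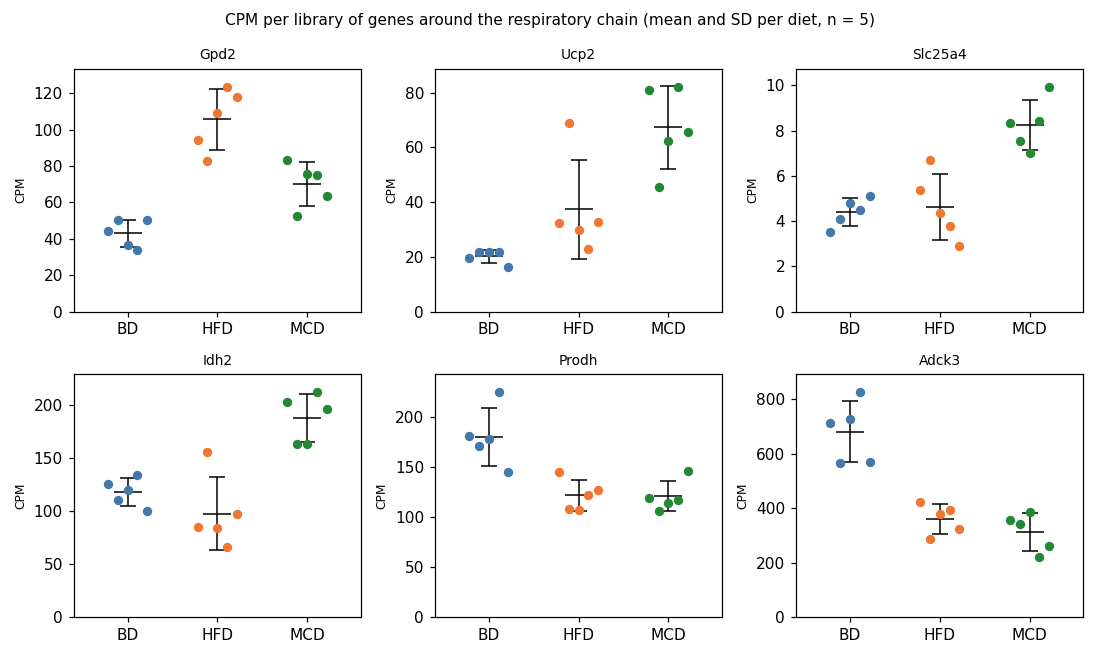
CPM of 6 genes around the respiratory chain in each library (points, coloured by diet), with mean and SD per diet as black lines. Gpd2 is highest in HFD, Ucp2, Slc25a4 and Idh2 in MCD, and Prodh and Adck3 in BD.

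Among 9 tested regulators of respiratory genes, 1 was called in HFD against BD, 2 in MCD against BD and 0 in MCD against HFD (2 were lower and 0 higher before adjustment, at p under 0.05). Ppara, the nuclear receptor for fatty acids, rose in HFD and in MCD against BD, with 273 ± 48.1 CPM under BD, 556 ± 48.2 under HFD and 465 ± 98.9 under MCD, by 0.96 and 0.62 with edgeR adjusted p of 0.000242 and 0.00347. Gabpa, the ETS subunit of GABP, fell in MCD against BD by -0.35 with an edgeR adjusted p of 0.0184, a call that stood in 23 of 29 alternatives. Without scaling factors it was lost, at -0.20 with an edgeR adjusted p of 0.176. Exons of Gabpa overlap those of Atp5j on the opposite strand. The coactivator Ppargc1a lay at 13.02 ± 3.69, 12.96 ± 2.92 and 17.9 ± 4.58 CPM, Nrf1 at 10.8 ± 1.12, 11.04 ± 3.12 and 10.7 ± 0.782, and Esrra at 19.8 ± 7.28, 19.95 ± 5.63 and 19.1 ± 6.16, none of them called. Of 9 tested genes for transcription and upkeep of mitochondrial DNA, Polrmt, the mitochondrial RNA polymerase, fell in MCD against BD by -0.54 with an edgeR adjusted p of 0.0453 (called in 10 of 29 alternatives), and the packaging factor Tfam lay at 49.6 ± 4.19, 47.7 ± 2.23 and 49.1 ± 5.78 CPM.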

How the data were processed

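The authors deposited whole-number read counts per gene symbol for each of 15 libraries. The tools named in the submitters' processing notes are HTSeq, TopHat2 (2.0.13), Trimmomatic and DESeq2, and the build is GRCm38/mm10. For annotation, strandedness and overlap mode of the counting, the entry is: not given in the sources used here. Rows that name no gene stayed out of totals and tests. They held 12.7% to 17.0% of uniquely placed reads as outside genes.

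CPM used the total of gene counts with no factor. Tests used edgeR (4.0.16, R 4.3.3): TMM factors, filterByExpr (minimum count 10, total 15), robust quasi-likelihood F tests over all 15 libraries, two-sided, with Benjamini-Hochberg adjustment over 12193 genes and calls at adjusted p under 0.05. TMM factors ran from 0.943 to 1.10, so small differences on the CPM and log2 scales can differ in sign. Replicates were compared within diets: chi-square over degrees of freedom lay between 6.89 and 61.0 in 30 pairs, so none was a duplicate. The fit was tested on simulated data first.

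GC content and length came from 1 GENCODE M21 transcript per gene. Alternatives (DESeq2 1.42.0, limma 3.58.1, other factors, filters, covariates, thinning, left-out libraries) are given in the closing section. Members and the 23 gene lists, of whose 207 genes 191 were found, were chosen with earlier results of these data known, and so was the rule for named genes. It takes the most abundant member of each complex, up to 3 called members per complex, the Sdh genes, the tissue isoform sets, and up to 2 called genes per list and comparison. Other members are named for their position in the range of values. Ambiguous reads were 0.567% to 0.841%. Sequences came from RefSeq (GRCm38.p6) and GENCODE. No protein sequence was used here. The values of 1 tested member are not reported here, though counts and medians over the members include it.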

Additional observations from a re-analysis of the deposited data

Results flagged for a closer look

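Among 66 groups of 5 libraries tested for a value standing apart (Dixon's test), 4 were picked out, where chance picks about 1 in 20. HFD 3 gave 3 of them, all low. Summed CPM of complex II was 1077, with the remaining HFD samples at 1190 to 1221. Sdha was 638.1 CPM against 676 to 685, and Cox6b1 was 126.8 CPM against 148 to 155. Sdha is the largest part of the complex II sum, so the flags of Sdha and of complex II are not independent. HFD 3 is the shallowest HFD library with 4367774 gene counts. The other was Uqcrc2 in BD 5, at 319.4 CPM against 256 to 269 in BD 1 to 4, the library with the strongest relation to GC content.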

How the results depend on the processing

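Results were recomputed under 30 alternatives, of which the removal of GC and length trends was chosen after seeing the data. The median log2 fold change of the members stayed on its side of 0 in the 29 for which it was computed (dropping the symbols that name no subunit gave counts only), except in MCD against BD, where it was 0.051 without scaling factors. Counts of members called changed more. In HFD against BD the count lower (1, Ndufb10) became 2 with DESeq2, 0 without scaling factors, 0 without HFD 2 and MCD 3 together and 0 with GC and length trends removed, where 1 was higher (Ndufa8). In MCD against BD the count lower (0) became 2 with DESeq2, 5 with non-unique alignments as a covariate (Atp5d, Ndufa11, Ndufb7, Ndufs7 and Ndufv1), 1 without HFD 2 and MCD 3 together and 2 with GC and length trends removed (Ndufb11 and Ndufv3). The count higher became 1 without scaling factors and 1 with the trends removed (Ndufa8 in both). Leaving out each replicate in turn gave 0 to 3 lower in HFD against BD (3 without BD 1, and 0 without BD 2, BD 3, BD 4, HFD 2, HFD 3 or HFD 4; without HFD 1 the member called was Ndufb6, not Ndufb10) and 0 to 6 lower in MCD against BD (6 without BD 5, 4 without MCD 2, 2 without BD 1 and 1 without MCD 3). The cause was not tested. MCD against HFD had 0 members called in every alternative run. Single members and pathway genes kept their side of the threshold in 7453 of 7638 recalculations, lost a call in 144 and gained one in 41, and none that was called reversed. Most of these recalculations were of genes not called in the main fit, which have no call to lose. The totals therefore do not measure how firm the calls were. In MCD against BD, Taco1 and Polrmt kept theirs in 6 and 10 of 29, and Gpd2, Prodh, Adck3 and Ppara in all 29. Dropping the symbols that name no subunit changed no count.

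No paired analysis was possible because replicate numbers follow the order of deposit and no label pairs samples across diets. Depth limits members near 1 CPM: 3 counts are 0.130 to 0.810 CPM.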
